A study of Homo sapiens with 6 samples.

Results

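The BCL2 family was followed in Kasumi-1, an established human acute myeloblastic leukaemia line labelled wild type, through 10 of its genes. They are the survival genes BCL2, BCL2L1, MCL1 and BCL2A1, the pore-forming genes BAX and BAK1, and the BH3-only genes BCL2L11, BID, BAD and BIK. The 10 genes were chosen by name among 29925 gene names in the deposited tables, and every one of them was found. All cells had received 100 uM CoCl2, a chemical mimic of hypoxia, together with 10 nM echinomycin, which blocks DNA binding by HIF-1, for 24 hours. RNA fragments with the methylated base m6A (N6-methyladenosine) were pulled down with an antibody (IP, 3 libraries) and set beside the RNA before the pulldown (input, 3 libraries), from 3 biological replicates. CoCl2 alone enters only through a differential table made by the authors, and its libraries were not analysed here. The line stands for 1 patient's leukaemia grown in culture, so the replicates measure the spread between cultures and not between leukaemias.

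Proteins of the BCL2 family decide at the outer mitochondrial membrane whether a cell enters apoptosis. BAX and BAK1 form pores that release cytochrome c, the survival proteins hold them and the BH3-only proteins in check, and BH3-only proteins relay stress by binding the survival proteins or by activating the pore formers. Myeloid leukaemia cells commonly lean on BCL2 or MCL1, and drugs that mimic BH3-only proteins are used against BCL2 in this disease. In messenger RNA, m6A is best known near stop codons and in 3' UTRs, where it affects stability and translation.

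The starts of the members' transcripts are shown because listed m6A peaks lay over several of them. RefSeq (GRCh38.p14) gave 14 start sites for 8 of the 10 genes. A listed peak covered the whole of the 50 bases after the start at 8 sites in 6 genes, BCL2, BCL2A1, BCL2L1, BCL2L11, BAX and BID. By the same rule 25.2% of 12072 starts of expressed genes were covered, in 31.6% of 8527 genes. The 3 BID sites lie under a single peak that missed an FDR of 0.05, and without it 5 sites in 5 genes remained, against 24.4% of starts and 30.6% of genes. Each line below holds 30 bases, 10 before the start and 20 from it onward, and the capital is the base at which RefSeq starts the transcript.
BCL2: ccttctccccAcccctcgccgcaccacaca
BCL2A1: agtcaagctcAgtgagcattctcagcacat
BCL2L1: cgcgcgcgttGccgcggcaccggaagtgac
BCL2L11: cgcaggtttcActtcgctccgcgcagccgc
BAX: tgacccgggcGcgctgcggccgcccgcgcg
BID, upstream start: gtggggggccGaaggaggaagcgcgcgggg
BID, middle start: ggggcgccatAaggaggaagcgggtagtcg
BID, downstream start: ggtgcaggccAcccttgccggcggatcgga
BAK1, no peak at the start: tccggtggccAcagagcaacttcctctaga

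These windows lie at chr18:63319750-63319779 for BCL2, chr15:79971177-79971206 for BCL2A1, chr20:31723944-31723973 for BCL2L1, chr22:17774476-17774505, chr22:17774450-17774479 and chr22:17773964-17773993 for BID and chr6:33580257-33580286 for BAK1, all on the minus strand. On the plus strand they lie at chr2:111120904-111120933 for BCL2L11 and chr19:48954865-48954894 for BAX. The base at the start was A at 5 of the 8 covered sites, against 52.8% of covered starts of expressed genes and 44.4% of all 35116 starts in the table. Without the BID peak it was A at 3 of 5. A related doubly methylated adenosine can occur as the base next to the cap, and antibodies against m6A are known to bind it too. Its share in these peaks was not tested. Of 12 pentamers of the m6A consensus (GGAC and GAAC as well as AGAC and AAAC, each with 1 further base that is not G), any was present in the 50 bases at 1 of the 8 covered sites, in BAX from base 20, against 40.8% of all starts. On the opposite strand 4 of the 8 sites held one, against 41.4%. Most of the peaks ran on beyond these 50 bases, and those further bases were not searched.

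MCL1 dominated the RNA of the survival genes. Its input level was 70.0, 72.0 and 71.8 FPKM (fragments scaled to transcript length and to the library's total) in replicates 1 to 3, a mean of 71.3 ± 1.09 FPKM (SD, n = 3). It made up 85.4% ± 0.318 (SD, n = 3) of the FPKM summed over the survival genes. In bulk RNA, fewer cells expressing a gene and less of its RNA per cell cannot be told apart. BCL2L1, which encodes the survival protein BCL-XL, followed at 7.84, 7.86 and 7.50 FPKM (mean 7.74 ± 0.202, SD, n = 3). BCL2A1, an NF-kB target gene in blood cells, was at 2.40, 2.70 and 2.51 FPKM (2.54 ± 0.151). BCL2, the founding member, was lowest at 1.91, 1.99 and 1.95 FPKM (1.95 ± 0.0425). MCL1 was thus 36.6 ± 0.427 times (SD, n = 3) above BCL2 and 9.22 ± 0.329 times above BCL2L1 when each library was set against itself, and none of these survival genes overlapped another in its values.

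The pore formers were well expressed and close to each other. BAK1 gave 21.7, 21.8 and 20.9 FPKM and BAX 18.3, 19.5 and 18.4 FPKM, and BAK1 was the higher in each library, by 1.15 ± 0.0334 times (SD, n = 3). Among BH3-only genes, BAD, whose protein binds BCL2 and BCL-XL, was highest at 20.6, 21.7 and 20.6 FPKM. BIK, which acts from the endoplasmic reticulum, was at 9.42, 9.89 and 9.38 FPKM. BID, which caspase-8 cleaves into its active form, gave 5.47, 6.27 and 5.81 FPKM, and BCL2L11, which encodes BIM, a broad binder of the survival proteins, 5.48, 5.58 and 5.85 FPKM. The last pair lay within each other's spread, BID being the higher in 1 of 3 libraries. So did BAK1 and BAD, whose ratio was 1.03 ± 0.0263 (SD, n = 3), while the other 7 of 9 neighbours in the order of levels did not overlap.

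**Figure D1:**
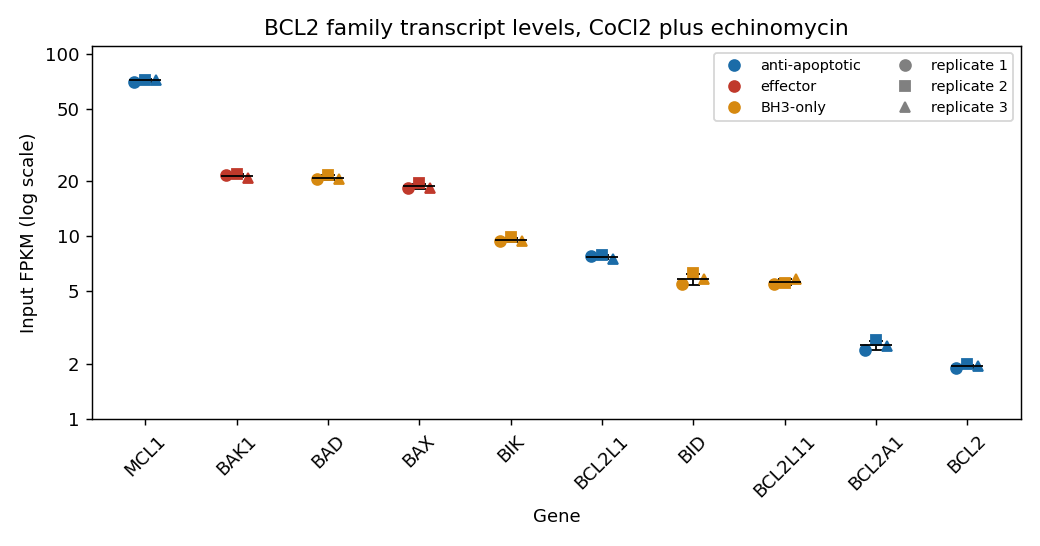
Input FPKM on a log axis for the 10 genes, ordered by mean. Symbols are the 3 libraries, horizontal bars and whiskers the mean and SD, and colours the role. MCL1, at 71.3 FPKM, stands 3.32 times above BAK1, the next gene, and BCL2 is last at 1.95 FPKM.

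All 10 genes were above 1 FPKM, the limit used here for an expressed gene, and 8 were above 5 FPKM. MCL1 was above 97.5% of 12612 expressed genes and BCL2 above 18.8%. The coefficient of variation across the libraries ran from 1.52% in MCL1 to 6.85% in BID, against a median of 6.06% over expressed genes. All 6 markers of the line, MPO, CD34, KIT, CD33, RUNX1 and RUNX1T1, were expressed, from 1.48 to 56.2 FPKM. Of 5 markers of other cells in the table, 4 were under 1 FPKM, and the epithelial gene EPCAM was at 8.79 FPKM. Depth per library is unknown from FPKM.

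Under the combined treatment, m6A peaks were listed for 9 of the 10 genes, against 79.7% of expressed genes, and BIK had none. The 9 genes carried 26 peaks, 13 labelled 5' UTR, 12 labelled 3' UTR and 1 another exon. That is 50.0% in the 5' UTR class, against 23.1% of 42634 peaks in the whole list, and 3.85% in other exons against 34.3%. The 5' UTR share includes 4 peaks listed with the strand opposite to their gene, taken up below with BCL2L1 and BAD. Fold enrichment, the authors' own value of IP over input with no error given, ran from 1.67 to 20.5 with a median of 3.44, against 4.53 over all peaks. A region label names where a peak was assigned and not how far it reaches: the members' peaks covered 60 to 3054 exonic bases, and 11 of the 26 joined several exon blocks.

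BCL2, the least expressed member, held the single most enriched peak of the members. Its 5' UTR peak had a fold enrichment of 20.5, above 97.8% of all listed peaks, in a single block of 3054 bases on chromosome 18 at 63317075 to 63320128. A second strong peak of 9.24, labelled 3' UTR, joined blocks of 1972, 24 and 71 bases from 63126788 to 63313872. It ended short of the block of the 5' UTR peak. The remaining 3 lay further into the 3' UTR. They had folds of 2.73 at 63124304 to 63124633, 2.39 at 63125262 to 63125561 and 4.75 at 63123645 to 63124154, the last of these nearest the 3' end.

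MCL1 had 3 peaks on chromosome 1, of moderate to low enrichment. The peak with the most extreme p-value, labelled 3' UTR, reached a fold of 6.19 with blocks of 576 and 412 bases from 150576916 to 150578655. The peak labelled 5' UTR, with blocks of 33 and 806 bases from 150578745 to 150579648, had 4.51, and a short peak of 150 bases close to the 3' end had 1.91. BCL2A1 had a single peak of 4.19 that covered its whole span on chromosome 15, 79960892 to 79971196, in blocks of 283, 56 and 497 bases.

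The pore formers differed in their marks. BAX had a peak of 7.62 over its start on chromosome 19 at 48954815 to 48955112 and one of 15.3 in the last 60 bases of its 3' UTR, at 48961739 to 48961798. The latter was above 95.4% of all listed peaks. BAK1, at a similar level of RNA, had 1 peak of 3.01 in the last 121 bases of its 3' UTR, on chromosome 6 at 33572547 to 33572667.

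In the BH3-only genes BCL2L11 and BID the highest folds lay at the start. BCL2L11 had a 5' peak of 13.0 with blocks of 192, 275 and 164 bases on chromosome 2, 111119378 to 111122833, and 3 more peaks of 2.05, 2.20 and 4.56 downstream. The downstream peak of 4.56 was well supported, at an authors' FDR of 1e-82, and lay at 111161516 to 111164488. BID, on chromosome 22, had peaks of 2.33 and 2.64 labelled 3' UTR and 2.06 in an internal exon. Its start carried a peak of 8.38 that missed the FDR limit of 0.05, at 0.124, while the other 25 peaks of the 10 members passed it, against 87.4% of all listed peaks. BAD had 1 weak peak of 2.76, taken up again beside BCL2L1.

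**Figure D2:**
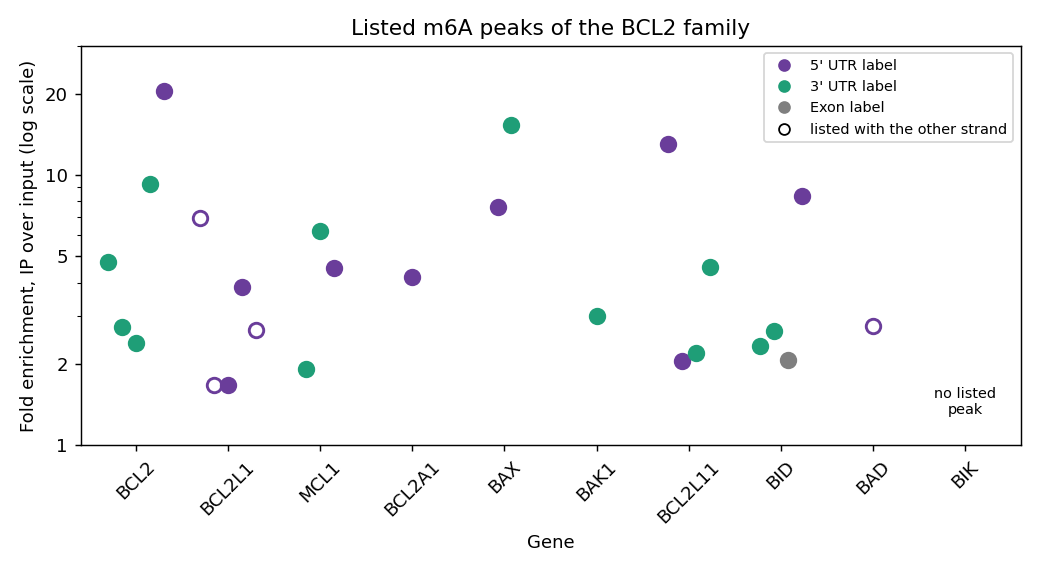
Fold enrichment of IP over input on a log axis for each of the 26 listed peaks, by gene. Colours give the region label and open circles the 4 peaks listed with the strand opposite to the gene. BCL2 (20.5), BAX (15.3) and BCL2L11 (13.0) hold the 3 peaks above 10.

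With echinomycin added to CoCl2, the m6A peak of lowest p fell on all 4 survival genes, and on BAX and BID, by the authors' differential test. The authors' deposited table tested 18 peaks of 7 members, against 63.3% of expressed genes that had a tested peak. BAD, BAK1 and BIK had none. A peak was called at an FDR under 0.05, with no fold limit. By that rule 11 of the 18 peaks in the authors' deposited table were called, against 68.9% of all 19983 peaks. Lower values made up 9 (50.0%, against 45.8% of all peaks) and higher values 2 (11.1%, against 23.1%). The same number, 61.1% of the members' peaks, were under an FDR of 0.01, against 57.3% of all peaks. With the peak of lowest p standing for each gene, 6 of 7 members of the authors' deposited table were called, against 75.3% of 11315 genes. All of these were lower and none higher, against 52.7% lower and 22.6% higher over all genes of the authors' deposited table. The tool behind this table's p-values is not stated. At an unadjusted p under 0.05, no member was higher at its peak of lowest p either.

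The falls were modest, and they were close to the shift of the whole table. The called lower peaks ran from a log2 fold change of -0.415 to -0.896 in the authors' deposited table, with a median of -0.74, against -0.70 over all lower peaks (quartiles -0.99 and -0.48). Over all 18 peaks, called or not, the median in the authors' deposited table was -0.48, against -0.43 for all peaks. No lower peak of a member reached 2-fold. For BCL2L1 and BID the direction depends on the peak taken: their peaks with the largest change in either direction stood at 2.10 (called) and 0.83 (not called) in the authors' deposited table, and by that choice 4 members rather than 6 were lower. The authors' deposited table gives 1 value per peak with no replicate values, so the FDR cannot be set against the spread between cultures here. Input levels under CoCl2 alone were not analysed here, and whether a fall in a peak came with a change in the gene's RNA was not tested.

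BCL2 fell at its 2 strongly enriched peaks. The peak of several distant blocks labelled 3' UTR was at -0.74 in the authors' deposited table (FDR 7.94e-19) and the 5' UTR peak at -0.535 (FDR 3.98e-16). The 2 peaks nearest the 3' end did not pass, at -0.15 (FDR 0.216) and 0.41 (FDR 0.121) in the authors' deposited table. The MCL1 peaks were at -0.415 (FDR 7.94e-79) and -0.475 (FDR 7.94e-35) in the authors' deposited table, the smallest of the members' called falls and among their lowest FDR values. A further differential peak of 390 bases at the 3' end of MCL1 was named for the adjoining gene ADAMTSL4-AS1, at -0.31 (FDR 9.12e-05) in the authors' deposited table. ADAMTSL4-AS1 itself was at 0.580 ± 0.0883 FPKM (SD, n = 3). BCL2A1 fell by 0.65 on the log2 scale over its whole transcript in the authors' deposited table (FDR 4.17e-05).

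BAX fell at the end of its 3' UTR, by 0.83 on the log2 scale in the authors' deposited table (FDR 0.00427), over a peak of 179 bases that holds the 60 bases listed above. Its start peak of 7.62 had no counterpart in the differential table. BID moved both ways among its peaks labelled 3' UTR. The terminal peak was at -0.74 (FDR 6.92e-09) in the authors' deposited table and the next one, at 17735332 to 17738056, at 0.68 (FDR 3.98e-07). The latter joined separate blocks of 260 and 40 bases. An internal exon of BID was at 0.83 (FDR 0.296) in the authors' deposited table. BCL2L11 had no called peak, with 0.43 (FDR 0.127) at the start, 0.485 (FDR 0.368) in an exon and -0.48 (FDR 0.285) in the peak labelled 3' UTR of the authors' deposited table. Its peak of fold 4.56 was not among the tested ones. Calls in both directions within a gene were present for 2 members, BID and BCL2L1, and for 10.1% of genes in the authors' deposited table.

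**Figure D3:**
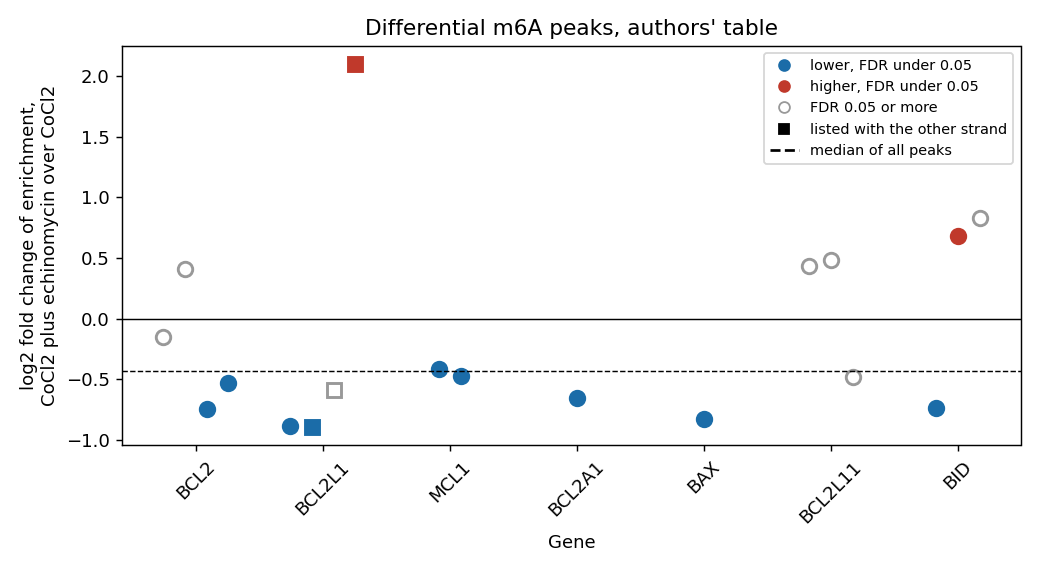
The log2 fold change of m6A enrichment, CoCl2 plus echinomycin over CoCl2, for the 18 differential peaks of 7 members in the authors' deposited table. Filled symbols passed an FDR of 0.05, squares are listed with the strand opposite to the gene, and the dashed line is the median of all peaks (-0.43). Called lower peaks of the survival genes, BAX and BID lie between -0.415 and -0.896.

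Peaks named BCL2L1 appeared to be listed under both strands, which does not show that RNA of both strands was methylated. Neither table has a column for the peak's own strand, but each runs through every chromosome once and then again from its start. Among peaks of genes that overlap no gene on the other strand, the first pass held plus-strand genes and the second minus-strand genes in 98.9% of 20546 listed and 99.0% of 9439 differential peaks. By this order, 3 of the 5 listed peaks of BCL2L1, a minus-strand gene, stood in the plus-strand pass. They lay inside ABALON, a noncoding RNA gene antisense to BCL2L1 on chromosome 20 at 31721507 to 31723409, which gave 0.226 ± 0.0377 FPKM (SD, n = 3) in the input.

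Some peaks of the 2 passes lay over nearly the same bases. The strongest peak named BCL2L1, of fold 6.95 over 833 bases, was in the plus-strand pass. The minus-strand pass held a peak of fold 6.88 that shares 804 of those bases and joins a block near the other end of BCL2L1, but it was named BCL2L1-AS1, a gene listed at 0 FPKM in all 3 libraries. A weaker pair shared 149 of 150 bases, and each had a fold of 1.67. The other 2 barely met, with 17 shared bases: a minus-strand peak of 3.86 at 31723055 to 31723989, which covers the BCL2L1 start shown above, and a plus-strand peak of 2.68 at 31723082 to 31723350. In the authors' deposited table the minus-strand peak of 1344 exonic bases had a log2 fold change of -0.89 (FDR 5.01e-36), and the plus-strand peak of 892 bases, 863 of them shared, had -0.90 (FDR 2.51e-23). Both falls are thus measured over largely the same bases and are not separate support. Whether the same reads entered both passes was not tested. A further plus-strand peak at 31722636 to 31722874 was at -0.59 (FDR 0.0794) in the authors' deposited table and did not pass, although all its 239 bases lie within the called minus-strand peak.

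The rise on BCL2L1 lay outside the shared bases. At 31723112 to 31723320 a peak of 209 bases in the plus-strand pass, annotated to an ABALON exon, had a log2 fold change of 2.10 (FDR 0.00603) in the authors' deposited table, and no minus-strand differential peak covered it. It was the 1 called peak of the 10 members beyond 2-fold, where 17.2% of all peaks of the authors' deposited table were called at that size. BAD showed the same pattern in the peak list. Its only peak, of 2.76 at 64270540 to 64270659 on chromosome 11, stood in the plus-strand pass, was labelled 5' UTR although it lies 13980 bases from the BAD start, and fell inside GPR137, a plus-strand gene at 5.09 ± 0.76 FPKM (SD, n = 3). Counting only peaks whose pass matched the gene's strand, 8 of 10 members and 22 peaks remained in the list, and 8 lower peaks and 1 higher peak were called in the authors' deposited table. The listed peaks left out this way were all labelled 5' UTR, so the members' share in that class is lower without them.

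**Figure D4:**
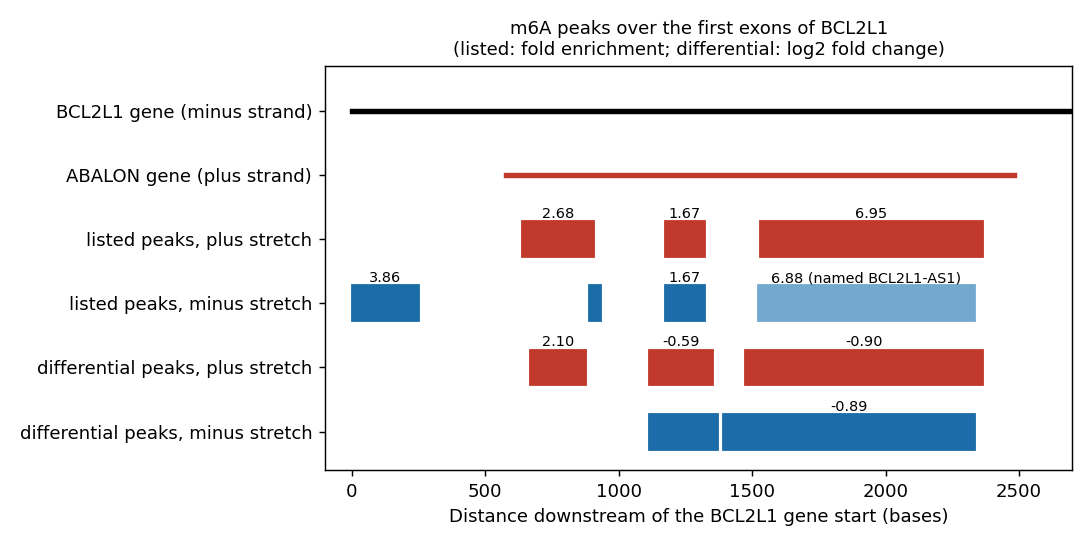
Peaks over the first exons of BCL2L1, by distance in bases downstream of the gene's start. Bars are exon blocks of listed peaks (labels are fold enrichment) and of differential peaks (labels are log2 fold change), in the plus-strand pass in red and the minus-strand pass in blue. The block with fold 6.95 and that with 6.88 share 804 bases, and the peak at 2.10 lies over ABALON with no differential peak of the minus-strand pass.

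Overlap with a gene on the opposite strand applied to 5 of the 10 members, BCL2, BCL2L1, BCL2L11, BAD and BAK1. GGNBP1, opposite BAK1, was at 0.0366 ± 0.0312 FPKM and MIR4435-2HG, opposite BCL2L11, at 0.286 ± 0.0342 FPKM (SD, n = 3 each). Libraries marked the strand, per the labels' protocols, but whether counting used it is not stated, so reads of a gene and its antisense partner cannot be told apart.

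Of 13 further genes of the family, 8 were expressed, and PMAIP1 was the most abundant of them. PMAIP1, which encodes NOXA, the BH3-only partner of MCL1, gave 53.5, 57.2 and 59.5 FPKM, or 0.796 ± 0.0322 times MCL1 (SD, n = 3). BBC3, which encodes PUMA, was at 1.77 ± 0.262 FPKM (SD, n = 3). BNIP3 and BNIP3L, mitophagy receptors and classical HIF targets, gave 22.7 ± 1.79 and 42.3 ± 0.67 FPKM (SD, n = 3). BOK, HRK, BCL2L10, BCL2L14 and BCL2L15 were under 1 FPKM. A peak was listed for 7 of the 8 expressed genes, BNIP3L being the exception, against 79.7% of expressed genes. Of the 5 genes under 1 FPKM, 3 also had listed peaks. HRK, at 0.124 FPKM, had folds of 12.1 and 12.6, and those of BCL2L10 and BCL2L15 ran from 3.73 to 9.31. High folds were thus listed at very low input levels too. At the peak of lowest p, 5 of the 8 genes tested in the authors' deposited table were lower, 2 were higher and 1, HRK, did not pass. Of all genes in the authors' deposited table, 52.7% were lower and 22.6% higher. The lower ones in the authors' deposited table were PMAIP1 at -0.73 (FDR 1e-89), BBC3 at -0.69, BMF, a BH3-only gene, at -0.62, BNIP3 at -0.39 and BCL2L2, the survival gene for BCL-w, at -0.32. The higher ones in the authors' deposited table were BCL2L12 at 1.21 and BCL2L13 at 1.35. BBC3 had a second called peak, in the 5' UTR, at -1.83 (FDR 0.0191) in the authors' deposited table. BCL2L13 had a second called peak of the opposite sign, at -0.0981 (FDR 0.00234) in the authors' deposited table.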

How the data were processed

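m6A immunoprecipitation sequencing of Kasumi-1 was read from 3 deposited tables. The authors gave FPKM per gene and library, and 3 input columns matched sample titles. Another 6 per-sample columns were left out. For each listed peak the deposited values are a fold enrichment (a ratio), a p-value and a log10 FDR, handled as a score because some are minus infinity. For each differential peak they are a deposited log2 fold change, a p-value and the same kind of score. The submitters' processing notes name HISAT2, fastp, ChIPseeker and HOMER. The sources used here do not give the peak caller, the genome build or the way replicates were merged.

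The direction, combined treatment over CoCl2, follows the table's name. Of differential peaks from -10 to -3 on the log2 scale, 27.5% overlapped a listed peak of the combined treatment, against 99.7% from 3 to 10. Gene positions overlapped GRCh38.p14 for 99.9% of 23237 gene names, and 8 of the 10 members shared an outer end with it, so RefSeq starts of that build were set against the peaks. Peaks were matched by gene name, and overlaps counted from 1 shared base within the same pass of the table. Each background share rests on all genes or all peaks, without a test of the family. The 10 members, the lists and the rule for named genes (every member, and any gene of the further lists with a level or a peak) were chosen with earlier results of these data known. Overlap and strand-pass functions were tested on simulated data. Python 3.11.15, numpy 2.4.6, pandas 2.3.3 and matplotlib 3.10.9 were used.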

Additional observations from a re-analysis of the deposited data

How the results depend on the processing

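Of 105 alternative values, 87 were within the replicate SD (for mean levels) or within 1.5 times of the reported value with the same sign, 11 moved further and 7 changed sign. Leaving out an input library moved no mean FPKM by more than 3.57% and kept all 10 members expressed, and a limit of 5 FPKM kept 8. With a 2-fold limit the 6 lower members and the 9 lower peaks became 0, and the 2 higher peaks became 1. The higher peaks also became 1 when peaks of the opposite strand pass, a setting chosen after seeing the data, were left out. Taking the mean over a gene's peaks, or the peak of highest absolute fold change, 1 member was higher in place of 0, and 5 and 4 members respectively were lower in place of 6. As means over peaks BCL2 came to -0.26, BCL2L1 to -0.068 and BCL2L11 to 0.15. Leaving out listed peaks that missed the FDR limit, also chosen after seeing the data, took the covered starts from 8 to 5. Signs turned with the choice of peak for 4 members of the authors' deposited table: BCL2 (0.41 at its highest peak), BCL2L1 (2.10 at its highest peak, which is also its largest), BCL2L11 (-0.48 at its lowest peak) and BID (0.26 as a mean and 0.83 at its highest peak, which is also its largest). MCL1, BCL2A1 and BAX kept theirs, the last 2 with a single tested peak each. The median of the members' peaks, -0.48, came to -0.043 once the median of all peaks was subtracted. No paired analysis was possible because the tables hold no per-replicate IP values. Depth is unknown, and no interval could be set on a fold enrichment.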

Other observations

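Among 12 genes that act downstream of the family or on its proteins (outer membrane proteins, the caspase-9 pathway, and enzymes that add or remove ubiquitin on MCL1), more tested m6A peaks were called higher than lower. All 12 were expressed and 10 had a listed peak, the exceptions being VDAC2, an outer membrane channel at 68.6 ± 2.28 FPKM (SD, n = 3), and MTCH2, an outer membrane insertase that binds BID, at 9.74 ± 0.551 FPKM (SD, n = 3). At the peak of lowest p, 6 of the 9 genes tested in the authors' deposited table were higher, 2 were lower and 1, CASP9, did not pass. The shares over all genes of the authors' deposited table were 22.6% higher and 52.7% lower. The higher ones in the authors' deposited table included CYCS, which encodes cytochrome c, at 0.24 (FDR 4.17e-08), DIABLO, an antagonist of caspase inhibitors, at 1.11 (FDR 0.00148), APAF1, the scaffold of the apoptosome, at 2.20 (FDR 2.51e-55), and VDAC1, an outer membrane channel, at 0.63 (FDR 5.13e-05). HTRA2, a mitochondrial protease, was at 0.74 (FDR 3.16e-29) in a peak of the opposite strand pass, and at 0.52 (FDR 2.04e-06) and 1.91 (FDR 0.00302) in its own pass of the authors' deposited table. USP9X, a deubiquitinase that stabilises MCL1, was at 0.73 (FDR 1e-18) in the authors' deposited table. FBXW7, a substrate receptor, and HUWE1, a ligase, both of which direct MCL1 to ubiquitination, were the 2 lower genes, at -0.95 (FDR 3.16e-17) and -0.35 (FDR 3.16e-14) in the authors' deposited table. Over every tested peak of these genes in the authors' deposited table, 11 were higher, 5 lower and 6 not called. Among all peaks of the authors' deposited table, 23.1% were called higher and 45.8% lower. The 11 higher peaks include overlapping HTRA2 peaks of both passes, which are not separate support. HUWE1 and USP9X each had called peaks of both signs in the authors' deposited table. The list was chosen with results of these data known, and the counts are a description.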
